A study of Mus musculus with 4 samples.

Results

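The cell cycle and proliferation genes were a named set of 36 of the 27998 genes in the count tables, and all 36 were found by symbol. They fall into 11 genes of DNA synthesis (S phase), 21 genes of mitosis and its preparation, and 4 genes that dividing cells hold at high level but resting cells also express (Stmn1, Tubb5, Tuba1b and Hmgb2). The cells were live CD45+ cells sorted from collagenase-digested transplanted tumours of wild-type 129S6 mice and sequenced in 4 droplet libraries of 3′ transcript ends. Every mouse carried a transplanted tumour and received 200 µg of antibody into the peritoneum on days 3, 6 and 9 after transplant. The control library came from mice given rat IgG2a isotype control, the aPD1 library from mice given anti-PD-1 clone RMP1-14, the aCTLA4 library from mice given anti-CTLA-4 clone 9D9, and the combination library from mice given both. The sources used here do not give the age of the mice, the number pooled in a library or the tumour line. Each group was 1 library, so no difference between groups could be tested, and every interval below is an exact 95% interval that covers counting error only.

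A dividing cell switches on its replication genes before and during S phase and its mitotic genes later, in G2 and M. Replication genes are classically driven by E2F factors, and many mitotic genes carry a CHR element together with CCAAT boxes in their promoters, which the DREAM, B-MYB and FOXM1 complexes and NF-Y bind. Activated T cells divide quickly in lymph nodes and tumours, macrophages of tissues can renew by local division, and neutrophils are end cells that no longer divide.

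The promoters of 6 members are shown, picked for the motifs they hold, as examples of a CHR beside CCAAT boxes in mitotic members and of E2F motifs in S phase members, with Cdk1 holding all 3. Capitals mark matches on either strand. The CHR was searched as TTTGAA and, as its variant, TTCGAA. The CCAAT box was searched by the letters of its name. For E2F the words searched were TTTCCCGC, also TTTGGCGC, also TTTCGCGC and finally TTTGCCGC. Each is the 100 or 150 bases just before the annotated start, from RefSeq on GRCm38.p6, written 5′ to 3′ on the gene's own strand.
Cdk1, chr10:69352913-69353062 (minus strand): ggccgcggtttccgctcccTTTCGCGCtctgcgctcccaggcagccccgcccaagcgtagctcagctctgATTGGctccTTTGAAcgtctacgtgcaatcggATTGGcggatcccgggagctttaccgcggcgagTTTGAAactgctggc
Ube2c, chr2:164769829-164769928 (plus strand): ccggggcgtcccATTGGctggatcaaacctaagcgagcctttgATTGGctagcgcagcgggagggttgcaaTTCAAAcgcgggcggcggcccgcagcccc
Cdc20, chr4:118437344-118437443 (minus strand): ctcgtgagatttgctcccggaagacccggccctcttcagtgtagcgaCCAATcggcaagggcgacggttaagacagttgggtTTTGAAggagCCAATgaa
Kif11, chr19:37376282-37376381 (plus strand): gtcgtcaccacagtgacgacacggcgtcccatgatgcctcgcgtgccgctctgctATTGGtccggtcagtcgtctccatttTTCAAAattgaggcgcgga
Mcm6, chr1:128359706-128359855 (minus strand): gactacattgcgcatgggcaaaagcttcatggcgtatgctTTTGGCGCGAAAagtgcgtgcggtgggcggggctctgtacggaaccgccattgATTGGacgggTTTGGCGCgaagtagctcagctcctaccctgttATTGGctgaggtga
Mcm5, chr8:75109359-75109508 (plus strand): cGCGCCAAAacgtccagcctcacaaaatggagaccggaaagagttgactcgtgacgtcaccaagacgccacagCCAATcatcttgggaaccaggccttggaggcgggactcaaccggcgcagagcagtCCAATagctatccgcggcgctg

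RefSeq promoters were at hand for 31 of the 36 members, with 2810417H13Rik entered under its newer symbol Pclaf. Stmn1, Ccna2, Mcm4, Aurkb and Tpx2 had no entry. In the 250 bases before the start, CHR occurred in 8 of 18 mitotic promoters and in 2 of 10 S phase promoters, against 17.4% of the promoters of all 27025 genes with an entry. CHR and CCAAT together occurred in the same 8 mitotic and 2 S phase promoters and in 6.21% of all promoters. An E2F motif occurred in 3 of 10 S phase promoters, those of Mcm5, Mcm6 and Mcm7, in 1 of 18 mitotic promoters, that of Cdk1, and in 1.91% of all promoters. CCAAT alone was in 8 of 10 S phase and 16 of 18 mitotic promoters, and in 34.5% of all. The E2F and CHR patterns can overlap other matches, and a match is a description of letters only.

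The authors' table listed 14491 cells and gave each 1 of 19 cluster numbers. The control, aPD1, aCTLA4 and combination libraries held 3793, 3417, 3336 and 3945 of them, with 11176246 to 13374294 transcript molecules (unique molecular identifiers, UMIs) per library and a median of 2549 to 2991 UMIs per cell. A UMI of Ptprc, the gene of CD45, was seen in 52.9% of cells. By marker genes, clusters 1, 2, 4, 7 and 15 were macrophage/monocyte-like, clusters 3, 6, 8, 9 and 10 T cell-like, cluster 5 NK cell-like, cluster 12 neutrophil-like and cluster 18 tumour or fibroblast-like, which goes against the CD45 gate. Clusters 0, 11, 13 and 14 kept their numbers. The macrophage/monocyte name was weakest for clusters 4 and 7, which each passed 4 of 12 markers of that type. Cluster 0 passed 7 of 12 and was left out of the class. The same 109 barcodes occurred in 2 libraries each (218 cells, 27 of them cycling), and without these cells the thinned share ratios given below stayed within their counting intervals.

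A cell was counted as cycling when it held a UMI of at least 3 of the 32 S phase and mitotic genes. With all 36 members in the count, 46.4% of control, 39.0% of aPD1, 41.9% of aCTLA4 and 32.3% of combination cells passed. Of the 4 added genes, Tubb5 had a UMI in 45.8–56.2% of a library's cells, Tuba1b in 49.6–58.9%, Hmgb2 in 36.6–46.2% and Stmn1 in 7.3–14.9%. With the 32 phase genes, 17.5% of control cells (664 of 3793, interval 16.3–18.8) were cycling. The share was 8.78% in the aPD1 library (300 cells, 7.85–9.78), 12.7% in the aCTLA4 library (424 cells, 11.6–13.9) and 7.81% in the combination library (308 cells, 6.99–8.69). The control library had the highest share, and its interval overlapped none of the other 3. Deeper cells pass such a threshold more easily: cycling cells had a median of 5111.5 UMIs and the others 2594. Each cell was therefore also thinned to 1000 UMIs, which left out 11 control, 195 aPD1, 123 aCTLA4 and 322 combination cells. After thinning the shares were 7.35%, 3.51%, 6.69% and 4.33%. The ratio to control was then 0.477 (0.380–0.596) with aPD1, 0.910 (0.758–1.09) with aCTLA4 and 0.590 (0.482–0.720) with the combination. At equal depth the aCTLA4 library could not be told from control by this share, and the summed level of the 32 genes was also close in both, at 1161 and 1168 CPM, the UMIs per 1000000 of the class total (aPD1 714, combination 820).

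**Figure D1:**
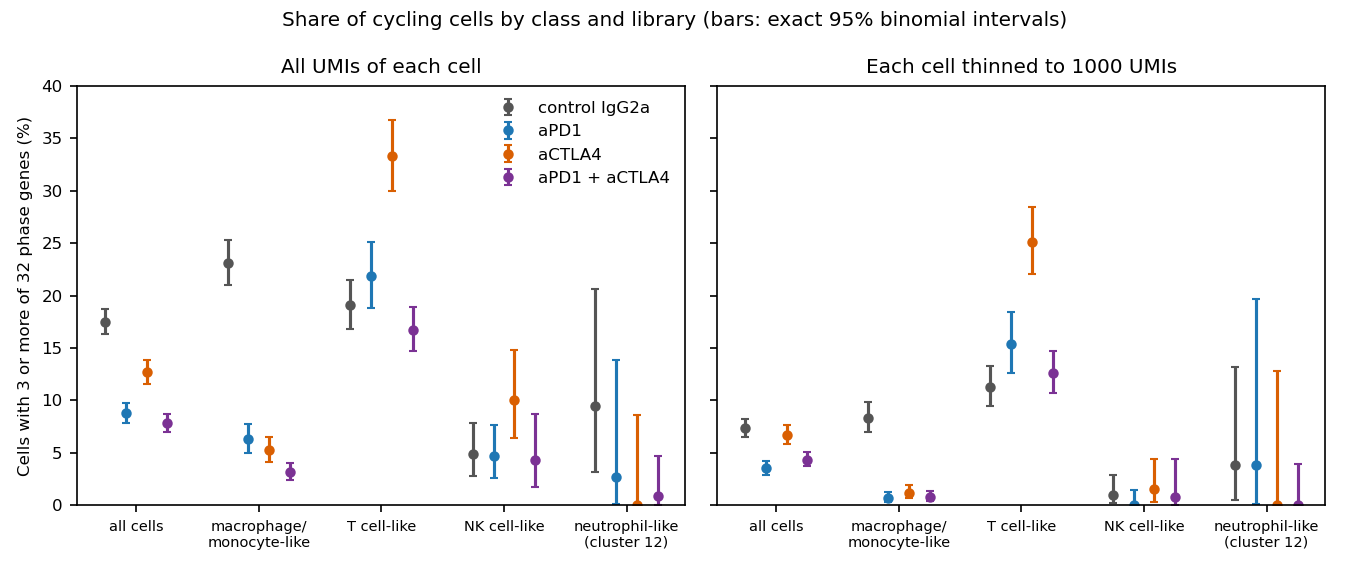
Percent of cells with 3 or more of the 32 phase genes (vertical axis) in each class and library, from all UMIs of each cell (left) and after thinning to 1000 UMIs (right); points are the shares and bars their exact binomial intervals. Among macrophage/monocyte-like cells the control point (23.1% and 8.31%) stands above the 3 treated points, and among T cell-like cells the aCTLA4 point (33.3% and 25.1%) stands above the other 3.

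The similar totals hid opposite differences in the main cell classes. Among macrophage/monocyte-like cells, 351 of 1521 control cells were cycling (23.1%, 21–25.3), against 79 of 1256 with aPD1 (6.29%, 5.01–7.78), 74 of 1411 with aCTLA4 (5.24%, 4.14–6.54) and 59 of 1868 with the combination (3.16%, 2.41–4.06). Thinned, the shares were 8.31%, 0.654%, 1.16% and 0.787%, resting on 126, 8, 16 and 14 cells. The thinned ratio to control was 0.0788 (0.0333–0.160) with aPD1, 0.140 (0.0777–0.237) with aCTLA4 and 0.0948 (0.0504–0.165) with the combination, and all 3 intervals lay below 1. Neutrophil-like cells, which should lack these genes, gave 2.82% unthinned (7 of 248 cells, median 1386.5 UMIs) and 1.52% thinned. After thinning that level rested on 3 of 197 cells, and the treated macrophage/monocyte-like shares lay below it while the control share lay above it. Of the cells behind the thinned shares, 103 of 126 in control, 7 of 8 with aPD1, 11 of 16 with aCTLA4 and 12 of 14 with the combination belonged to cluster 15, whose cells held many of the genes. The median UMIs per macrophage/monocyte-like cell were 4296 in control and 3253 to 3688 in the treated libraries, and the part of depth in the unthinned difference was not tested beyond the thinning.

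Different clusters made up this class in the different libraries. Cluster 1 was 70.7% of the class in control, 24.4% with aPD1, 29.6% with aCTLA4 and 13.6% with the combination. Cluster 2 was the larger one in the treated libraries, at 43.7%, 30.8% and 36.8%, and cluster 4 reached 31.5% in the combination. Cluster 15, whose 10 leading genes were cell cycle genes, held 126 control cells, 9 aPD1, 14 aCTLA4 and 14 combination cells. It was set apart by the genes described here, so its size is a description. Leaving cluster 15 out, 16.2%, 5.61%, 4.29% and 2.43% of the class were cycling (226, 70, 60 and 45 cells), and the thinned shares were 1.65%, 0.082%, 0.367% and 0.113%. The thinned control share outside cluster 15 was thus close to that of neutrophil-like cells given above. Within cluster 1 alone the unthinned share was 18.5% in control, 9.45% with aPD1, 5.52% with aCTLA4 and 3.94% with the combination. Within cluster 2 it was 12.6%, 5.65%, 4.14% and 2.03%. Control was thus the highest library within either cluster before thinning, with median UMIs per cell in cluster 1 of 4428, 4002, 3957 and 3315.5. The part of depth in these unthinned shares was not tested. Clusters 4 and 7 had low shares in all libraries (3.17–5.45% and 0.619–3.77%).

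Every member could be measured in this class. With aPD1 all 36 had a log2 ratio to control below 0 and 31 were lower by more than 2-fold, against 7.18% of all genes tested in that direction. With aCTLA4 28 members were lower by more than 2-fold (background 8.07%), and with the combination 30 (background 10.4%). The median log2 ratio of the members was -1.97, -2.06 and -2.19, beside -0.12, -0.16 and -0.21 for all genes tested. With scaling by median-of-ratios size factors, which takes up that general shift, the member medians were -1.84, -1.91 and -1.97. The 3 comparisons share the control library. More than 3 in 4 members were thus past the fold in each comparison, a count that describes these 4 libraries.

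Among the S phase members the nucleotide enzymes were low in all treated libraries. Tyms, the thymidylate synthase, was at 42.4 CPM in control, 11.4 with aPD1, 9.41 with aCTLA4 and 8.76 with the combination (log2 ratios -1.89, -2.17 and -2.28). Tk1, the thymidine kinase of dividing cells, was at 39.8, 4.29, 5.61 and 3.44, and Rrm2, a subunit of ribonucleotide reductase, at 31.5, 6.33, 7.21 and 5.94. 2810417H13Rik, a PCNA-binding factor of replication forks, was at 102, 22.7, 15.4 and 12.7, and 49 of its 111 aPD1 UMIs came from 1 cell. All 4 genes had their highest level in control, and no treated interval of the log2 ratio reached 0.

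Pcna, the sliding clamp of replication and repair, differed less. It was at 87.3 CPM in control, 57.8 with aPD1, 47.6 with aCTLA4 and 52.1 with the combination, with log2 ratios of -0.60, -0.87 and -0.75. Of the 6 subunits of the replicative helicase, Mcm6 differed most, at 16.8, 2.86, 2.20 and 2.03 CPM (log2 ratios -2.56, -2.93 and -3.05). Mcm3 differed least, at 28.4, 21.2, 19.4 and 26.6, and its log2 ratio with the combination, -0.09 (-0.40 to 0.21), was the highest of all members and above the all-gene median. Mcm2, Mcm4, Mcm5 and Mcm7 had log2 ratios between -2.39 and -0.93. Helicase subunits that work as 1 ring thus did not share 1 ratio, and 31 of the 47 Mcm2 UMIs of the combination library came from 1 cell.

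Mitotic members spanned a wider range. Mki67, the Ki-67 antigen of the mitotic chromosome surface, was at 33.6, 16.8, 15.4 and 10.9 CPM (log2 ratios -1.01, -1.13 and -1.62). Top2a, the topoisomerase that untangles sister chromatids, was at 59.1, 10.8, 12 and 7.82 (-2.45, -2.30 and -2.92). Birc5, the survivin subunit of the chromosomal passenger complex, was at 90.7, 11.6, 18.4 and 10.8. Its partners Aurkb, the passenger kinase, and Cdca8, the borealin subunit, had log2 ratios of -2.50 to -1.95 and of -1.82 to -1.42.

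The mitotic cyclins were among the lowest. Ccnb2 was at 25.3 CPM in control and 1.63, 4.20 and 5.00 in the treated libraries, and its aPD1 log2 ratio of -3.95 (-5.19 to -2.94) was the lowest member of that comparison once 0.5 was added to each count. Ccnb1, whose protein activates CDK1 at mitotic entry, was at 20.6, 1.43, 9.81 and 1.41 (log2 ratios -3.85, -1.07 and -3.87). The combination value was the lowest member of that comparison, and of the 49 Ccnb1 UMIs with aCTLA4, 36 came from 1 cell. Ccna2, cyclin A2, was at 15.5, 1.23, 3.20 and 2.19, and Cdk1, the mitotic kinase, at 39.9, 9.81, 10.6 and 5.79. The small kinase partners Cks1b and Cks2 differed from each other, with log2 ratios of -2.08 to -1.80 and of -0.76 to -0.71.

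Ube2c, the conjugating enzyme that works with the anaphase-promoting complex, was at 58.1, 4.29, 6.81 and 10.0 CPM, and its aCTLA4 log2 ratio of -3.09 was the lowest of that comparison. Cdc20, an activator of the same complex, was at 19.5, 2.66, 4.60 and 2.66. Aurka, the kinase of the spindle poles, was at 9.36, 2.66, 11.6 and 2.66 and was the only member above control with aCTLA4 (log2 0.31, -0.23 to 0.85), with 46 of its 58 UMIs in 1 cell. The spindle and kinetochore genes Cenpf, Nusap1, Tpx2, Kif11, Bub1 and Plk1 and the mitotic entry gene Cdca3 had log2 ratios between -3.98 and -1.13 in all 3 comparisons. Bub1, Kif11 and Plk1 rested on 44 or fewer UMIs per library, and the Bub1 intervals with aPD1 and with the combination reached above 0.

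Of the broadly expressed members, Stmn1, the microtubule-destabilizing stathmin, was at 196 CPM in control and 27.0, 31.8 and 22.2 in the treated libraries (log2 ratios -2.86, -2.62 and -3.14). The tubulin genes differed far less. Tuba1b was at 563, 460, 403 and 414, and its aPD1 log2 ratio of -0.29 was the highest member of that comparison. Tubb5 was at 520, 312, 301 and 291, and Hmgb2, a chromatin protein, at 286, 140, 148 and 161.

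Outside cluster 15 the difference in this class was smaller and unevenly spread. There 31 of the 36 members passed the filter of 20 counts, and 17, 17 and 22 of these were lower by more than 2-fold with aPD1, aCTLA4 and the combination, beside backgrounds of 5.24%, 6.22% and 8.65%. Their median log2 ratios were -1.11, -1.24 and -1.51. Mki67 no longer separated the libraries, at 10.0 CPM in control, 13.9 with aPD1, 13 with aCTLA4 and 7.91 with the combination, with all 3 intervals of the log2 ratio including 0. Cks2 was level at 28.3, 31.3, 28.1 and 27.4. Mcm6, at 12.3, 2.28, 1.42 and 1.42, and Tk1, at 15, 1.86, 3.46 and 1.74, kept intervals below 0 in all 3 comparisons. Summed over the S phase members the level was 214 CPM in control and 102 to 113 in the treated libraries. Summed over the mitotic members it was 173 in control, 112 with aPD1, 116 with aCTLA4 and 76.3 with the combination.

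**Figure D2:**
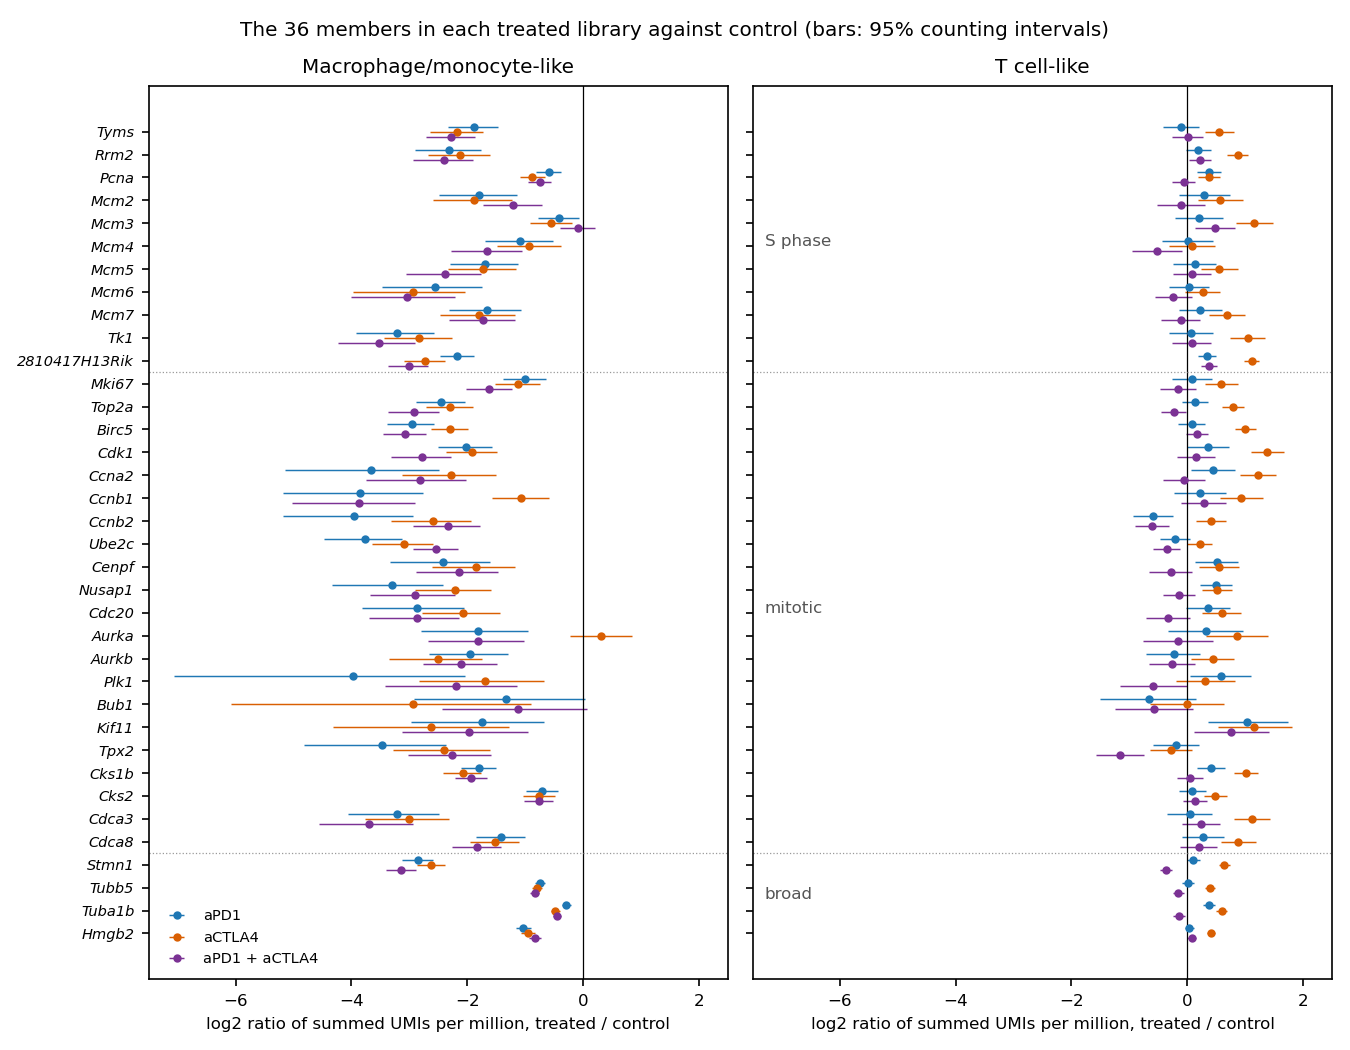
Log2 ratio of summed CPM, treated over control, for each of the 36 members (rows, grouped by role) in macrophage/monocyte-like (left) and T cell-like cells (right); points are ratios and bars their 95% counting intervals. Most macrophage/monocyte-like points lie left of -1, while T cell-like points lie near 0 for aPD1 and the combination and mostly right of 0 for aCTLA4.

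T cell-like cells differed in the other direction. Of these, 211 of 1107 control cells were cycling (19.1%, 16.8–21.5), 152 of 695 with aPD1 (21.9%, 18.9–25.1), 257 of 771 with aCTLA4 (33.3%, 30.0–36.8) and 210 of 1256 with the combination (16.7%, 14.7–18.9). Thinned, the shares were 11.2%, 15.3%, 25.1% and 12.6%. The thinned ratio to control was 1.37 (1.04–1.80) with aPD1, 2.24 (1.77–2.84) with aCTLA4 and 1.12 (0.873–1.44) with the combination. The aCTLA4 library stood clear of the other 3. The combination lay below control unthinned and above it thinned, while its summed phase level of 2395 CPM was level with the 2393 of control, so no order between these 2 libraries is read. The summed level was 2710 with aPD1 and 4019 with aCTLA4. The median UMIs of T cell-like cells were 1924, 1980, 2345 and 1698, so depth moved with the share and its part beyond the thinning was not tested.

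Most of these cells were in cluster 9, which the members also helped to define. It made up 12.4% of T cell-like cells in control, 15.5% with aPD1, 26.2% with aCTLA4 and 11.5% with the combination, and 98–100% of its cells were cycling in each library. Outside it 7.84%, 7.50%, 10.4% and 6.03% of T cell-like cells were cycling (thinned 0.930%, 1.74%, 2.08% and 1.56%). The unthinned share outside cluster 9 was highest in cluster 10, the T cell-like cluster with regulatory T cell markers, at 16.5%, 17.1%, 20.8% and 13.2%. In cluster 8 it was 7.11%, 13%, 19.8% and 5.73%. Cluster 14, an unnamed cluster led by granzyme genes, is not part of the T cell-like class. There 6 of 26, 14 of 35, 28 of 70 and 9 of 34 cells were cycling, unthinned. Of these 57 cells 20 sat exactly at the threshold, and the cluster's median of 6035 UMIs per cell was the highest of any cluster.

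In T cell-like cells 9 of the 36 members were higher than control by more than 2-fold with aCTLA4, beside 3.71% of all genes tested. With aPD1 it was 1 member (background 3.3%), and with the combination none (background 3.03%), where 1 member, Tpx2, was lower past 2-fold. The median log2 ratio of the members was 0.59 with aCTLA4, 0.16 with aPD1 and -0.11 with the combination, beside all-gene medians of -0.02, 0.00 and -0.03. Ratios above 0 were seen for 35, 30 and 15 members. S phase and mitotic members were alike with aCTLA4, with medians of 0.57 and 0.59. Without cluster 9, where 26, 23 and 25 members passed the filter, the medians were 0.09, -0.05 and -0.09. Outside that cluster the median of the members that passed thus lay near 0 in all 3 comparisons, and every member left out was mitotic.

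Among mitotic members, Cdk1 was at 51.4 CPM in control, 66.2 with aPD1, 134 with aCTLA4 and 57.0 with the combination, and its aCTLA4 log2 ratio of 1.38 (1.10 to 1.68) was the highest. Kif11, the motor that pushes spindle poles apart, was at 12, 24.7, 26.8 and 20.3, and led the members with aPD1 (log2 1.04) and with the combination (0.76). Ccna2, Cdca3, Cks1b and Birc5 were also past 2-fold with aCTLA4, at log2 ratios of 1.22, 1.11, 1.01 and 1.00. Tpx2, which activates Aurora A on spindle microtubules, went against the rest at 55.1, 48.2, 45.3 and 24.7, the lowest ratio with aCTLA4 (-0.28, -0.65 to 0.08) and with the combination (-1.16, -1.58 to -0.75). Bub1, a spindle checkpoint kinase, was at 16.8, 10.7, 16.8 and 11.3 and was lowest with aPD1 (-0.65, -1.51 to 0.14).

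Mki67 was at 65.7 CPM in control T cell-like cells, 69.5 with aPD1, 98.9 with aCTLA4 and 58.7 with the combination (log2 ratios 0.08, 0.59 and -0.16). Top2a was at 143, 157, 247 and 121 (0.14, 0.79 and -0.24), and Ccnb1 at 36.5, 42.6, 69.7 and 44.3 (0.22, 0.93 and 0.28). All 3 had their highest level with aCTLA4, and the aPD1 intervals of all 3 included 0.

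S phase members gave a like picture. Tyms was at 83.9, 78.0, 123 and 84.3 CPM (log2 ratios -0.11, 0.55 and 0.01), and Pcna at 148, 192, 192 and 142 (0.37, 0.37 and -0.06), so Pcna was as high with aPD1 as with aCTLA4. Mcm3, 2810417H13Rik and Tk1 were past 2-fold with aCTLA4, at log2 ratios of 1.16, 1.11 and 1.04, while Mcm4 was level at 40.1 in control and 42.4 with aCTLA4. Stmn1, the broadly expressed stathmin, was at 564, 607, 875 and 438 (0.11, 0.64 and -0.37).

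The dividing T cell-like cells differed between libraries in the lineage genes seen in them. Cluster 9 held 137 control, 108 aPD1, 202 aCTLA4 and 144 combination cells. Cells with a UMI of Cd8a or Cd8b1 and none of Cd4 were 68.6% of it in control (60.1–76.3), 42.6% with aPD1 (33.1–52.5), 46.5% with aCTLA4 (39.5–53.7) and 29.2% with the combination (21.9–37.3). Cells with Cd4 and neither Cd8 gene were 7.30%, 12%, 21.3% and 35.4%. Cells with no UMI of Cd4, Cd8a or Cd8b1 were 23.4%, 43.5%, 28.7% and 33.3%. A lower Cd8 share is thus not matched by an equal rise of the Cd4 share, least of all with aPD1. The control library had the highest Cd8 share and the combination the highest Cd4 share, each clear of control's interval. Some of the cluster's cells were not T cells by these genes. A Cd3d, Cd3e or Cd3g UMI was seen in 92.0%, 79.6%, 89.6% and 97.9% of its cells, and 11, 16, 17 and 2 cells held the NK cell receptor gene Ncr1 and no Cd3 UMI. Foxp3, the factor of regulatory T cells, had a UMI in 9, 3, 5 and 0 cells of cluster 9.

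**Figure D3:**
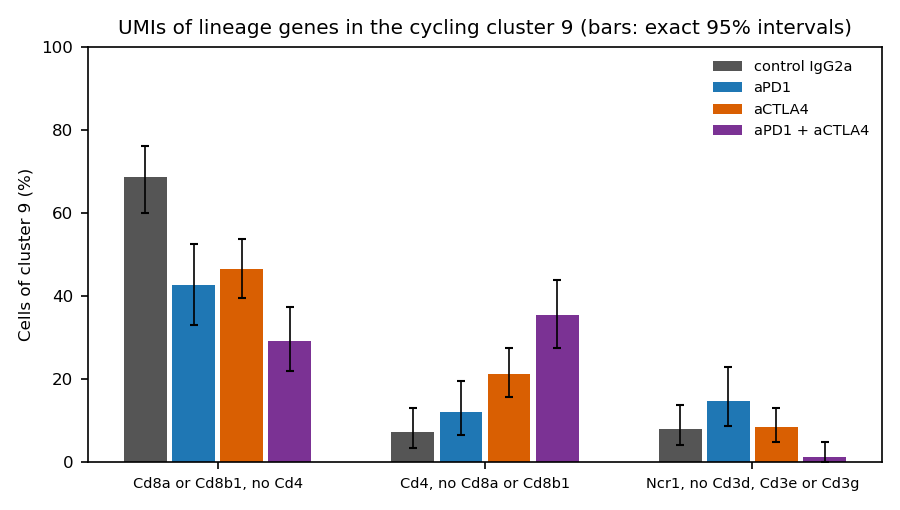
Percent of the cells of cluster 9 (vertical axis, 137 control, 108 aPD1, 202 aCTLA4 and 144 combination cells) with UMIs of the lineage genes named on the horizontal axis; bars are shares and whiskers exact binomial intervals. The Cd8 share is highest in control (68.6%) and lowest with the combination (29.2%), and the Cd4 share runs the other way (7.30% and 35.4%). Cells with no UMI of Cd4, Cd8a or Cd8b1 are not drawn as a group.

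Seen over all T cell-like cells, the cycling share among cells with Cd4 and without Cd8a, Cd8b1 or Foxp3 was 8.40% in control, 13.5% with aPD1, 28.9% with aCTLA4 and 21.1% with the combination. Thinned, it was 2.52%, 7.74%, 20.4% and 15.2%, with ratios to control of 3.07 (1.09–9.85), 8.10 (3.4–23.5) and 6.04 (2.58–17.2). Among cells with a Cd8 gene and no Cd4 it was 28.5%, 33.9%, 46.8% and 19.8%, with thinned shares of 18.5%, 22.3%, 35.8% and 13.7%. The thinned ratio there was 1.93 (1.40–2.67) with aCTLA4 and 0.741 (0.484–1.12) with the combination. So the Cd4 cells of the combination library cycled more often than those of control, while for its Cd8 cells the interval of the ratio included 1. Whether a cell shows a Cd4 or Cd8 UMI itself depends on depth. Cells with a Foxp3 UMI were few, and 22 of 95, 7 of 23, 5 of 13 and 1 of 20 of them were cycling.

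NK cell-like cells, those of cluster 5, showed little of the set. Cycling cells were 15 of 310 in control (4.84%), 14 of 301 with aPD1 (4.65%), 22 of 219 with aCTLA4 (10.0%) and 7 of 163 with the combination (4.29%), and after thinning 3, 0, 3 and 1 cells were left, at most 1.52% of a library's NK cell-like cells, the level of neutrophil-like cells. Mki67 had 8, 1, 2 and 2 UMIs, Top2a 11, 5, 9 and 5, Tyms 10, 5, 8 and 8, and Ccnb1 2, 2, 0 and 0. Pcna was at 66.3, 115, 78.5 and 53.6 CPM and Stmn1 at 77.6, 63.3, 52.3 and 107. Plk1 and Kif11 had no UMI in any of the 4 libraries. Only 12, 14 and 8 members reached 20 counts in the comparisons with aPD1, aCTLA4 and the combination. Among these, Mcm6 had the highest ratio with aPD1 and with aCTLA4. It had 8 UMIs in 8 control cells, 65 in 22 aPD1 cells (38 of them in 1 cell), 33 in 14 aCTLA4 cells (15 in 1 cell) and 17 in 13 combination cells. Mcm2 had the highest ratio with the combination, with 36 UMIs of which 33 were in 1 cell. The lowest ratios among the members that reached 20 counts were those of Hmgb2 with aPD1 (435 against 291 CPM, log2 -0.58), Birc5 with aCTLA4 (17 against 5 UMIs) and Tuba1b with the combination (178 against 94.6 CPM, log2 -0.91). Outside cluster 5, cells with NK cell genes passed the cycling threshold more often when not thinned. Unnamed cluster 14 passed 7 of 8 NK cell markers, and 57 of its 165 cells were cycling. These cells were deeper, with a cluster median of 6035 UMIs against 1611 in cluster 5. Of the 57 cells 20 sat exactly at the threshold, and their median was 5 phase genes, against 16 in cluster 9. In a second clustering by the authors, of lymphoid cells only, cluster 10 had an Ncr1 UMI in 89.6% of its 154 cells. Of these 154 cells, 56 were cycling (36.4%, 28.8–44.5). Both counts are unthinned. The 2 clusters were close in size and in cycling cells, and the cells they share were not counted. They may hold largely the same cells and are not read as 2 separate cases.

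The balance of S phase and mitotic transcripts differed little between libraries and strongly between clusters. Among UMIs of the 32 phase genes in cycling cells, S phase genes took 38.4% in control (37.6–39.3), 43.5% with aPD1 (42.3–44.8), 42.9% with aCTLA4 (42.0–43.8) and 44.1% with the combination (42.9–45.2). Control was below the 3 treated libraries, whose intervals overlapped each other. In the cycling cells of cluster 9 the shares were 38.3%, 40.3%, 42.1% and 44.2%. In that cluster the summed S phase level was 3147, 3143, 3321 and 3525 CPM and the summed mitotic level 5074, 4648, 4574 and 4443. A few mitotic genes were low there in every treated library: Tpx2 was at 213 CPM in control and 148, 95.6 and 92.8 in the treated libraries, and Bub1 at 67.6, 34.8, 33.8 and 40.5. Both were picked out after their values were seen.

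Cluster 15, the dividing macrophage/monocyte-like cells, had 31.3% of the phase UMIs of its cycling cells from S phase genes in control, and the 9 to 14 cells of each treated library gave 50.4%, 31.1% and 24.7%. In cluster 10 the balance was reversed, with 71.8% S phase UMIs in its cycling cells over all libraries. Its S phase genes were at 595, 550, 935 and 724 CPM and its mitotic genes at 260, 250, 348 and 399. An S phase excess was not particular to cluster 10. Over all cells of cluster 8, S phase UMIs also outnumbered mitotic ones in every library. Cluster 18, the tumour or fibroblast-like cells, lay at the other end with 22.5% in its cycling cells, and 21 of its 30 control cells were cycling, against 5 of 10, 6 of 12 and 0 of 3 in the treated libraries. Cells with at least 2 S phase and at least 2 mitotic genes were 88.4% of the cycling cells of cluster 9 and 84.0% of those of cluster 15, so most dividing cells could not be put in 1 phase by detection alone.

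**Figure D4:**
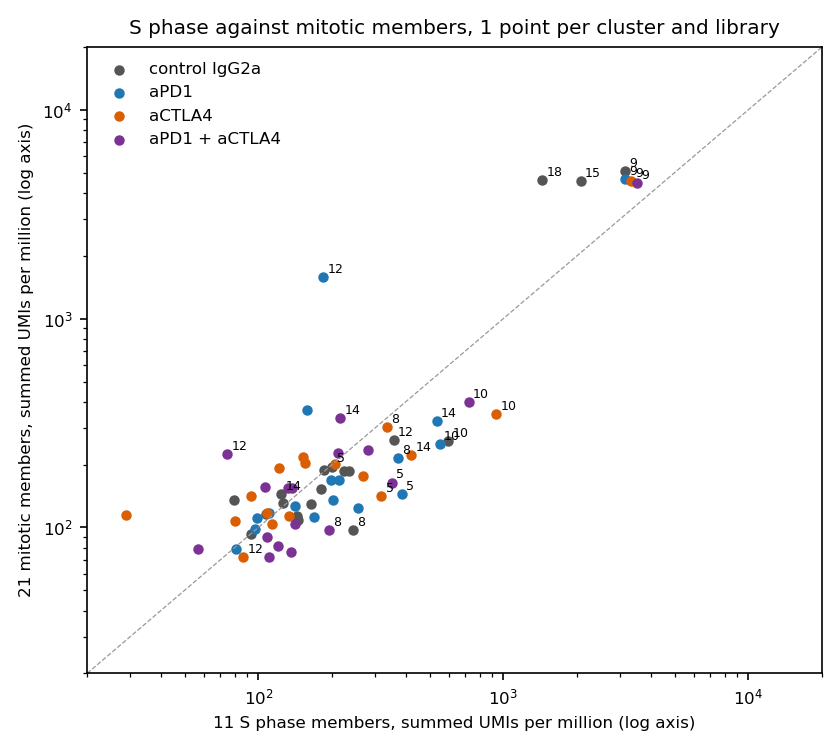
Summed CPM of the 21 mitotic members (vertical, log axis) against the 11 S phase members (horizontal, log axis), 1 point per cluster and library with at least 20 cells, and the dashed line at equal levels. Cluster 9 and the control points of clusters 15 and 18 lie at the upper right on the mitotic side, cluster 10 lies on the S phase side, as does cluster 8, and the aPD1 point of cluster 12 rests on 1 cell.

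Cycling cells were not confined to clusters 9 and 15. Outside them lay 404 of the 664 cycling cells in control (60.8%), 183 of 300 with aPD1 (61.0%), 212 of 424 with aCTLA4 and 151 of 308 with the combination (49.0%), in all 950 of 1696 (56.0%). These cells held few of the genes, with a median of 3 of 32 against 16 in cluster 9 and 15 in cluster 15, and 482 of the 950 sat exactly at the threshold. Just outside it, 1441 cells held 2 phase genes. With at least 5 genes required, 36.4%, 28.8%, 24.9% and 21.1% of cycling cells lay outside, and after thinning 21.6%, 16.8%, 14.4% and 13.4%. S phase genes gave 50.9%, 52.4%, 52.5% and 53.8% of the phase UMIs of cycling cells outside the 2 clusters, against 38.3–44.2% in cluster 9, and 25.4% of the cycling cells there had at least 2 genes of each phase. The largest single source outside was cluster 1 in control, with 30.0% of that library's cycling cells, against 9.67%, 5.42% and 3.25% in the treated libraries.

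By class, macrophage/monocyte-like cells were 52.9% of the cycling cells in control, 26.3% with aPD1, 17.5% with aCTLA4 and 19.2% with the combination, and T cell-like cells 31.8%, 50.7%, 60.6% and 68.2%. By transcripts, cluster 9 supplied 35.8% of the library's phase UMIs in control, 53.3% with aPD1, 71.6% with aCTLA4 and 62.8% with the combination. Cluster 15 supplied 32.0%, 4.82%, 3.76% and 5.84%, and cluster 1 13.1%, 4.27%, 2.72% and 1.71%. The proliferating compartment was thus mostly macrophage/monocyte-like and T cell-like in control, and mostly T cell-like with aCTLA4 and with the combination. With aPD1 T cell-like cells were the largest class, at 50.7% of cycling cells (44.9–56.5). The shares of cycling cells are unthinned.

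**Figure D5:**
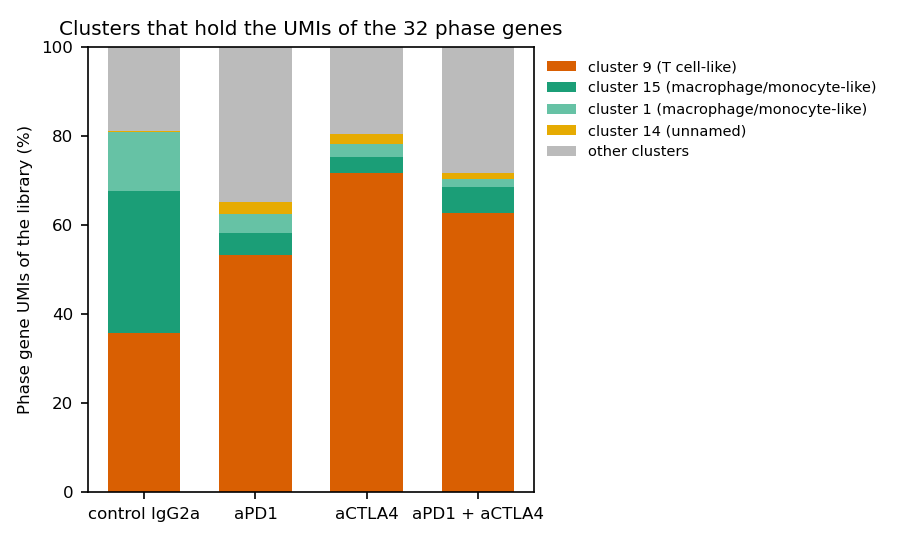
Percent of each library's UMIs of the 32 phase genes (vertical axis) that came from cluster 9, cluster 15, cluster 1, cluster 14 and all other clusters (stacked bars, 1 per library). Cluster 9 supplies 35.8% in control and 53.3% to 71.6% in the treated libraries, and cluster 15 supplies 32.0% in control and at most 5.84% elsewhere.

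Other cell cycle genes, from wider lists that hold none of the members, followed the members in macrophage/monocyte-like cells. Of 38 further S phase genes 37 passed the filter, and 21, 23 and 26 were lower by more than 2-fold with aPD1, aCTLA4 and the combination, against 7.18%, 8.07% and 10.4% of all genes tested. Dscc1, a loader of the sliding clamp, had 78 UMIs in control and 2, 4 and 1 in the treated libraries. Of 53 further G2 and mitotic genes, 38 of the 46 that passed were lower with aPD1, 39 of 48 with aCTLA4 and 41 of 47 with the combination, beside the same shares of all genes. Without cluster 15 fewer were lower past 2-fold. They were 8 of 29, 7 of 29 and 10 of 30 S phase genes, and 7 of 21, 4 of 22 and 7 of 23 G2 and mitotic genes. The shares of all genes were then 5.24%, 6.22% and 8.65%. With aCTLA4, 1 gene of each list was higher past 2-fold there, beside 3.88% of all genes. Esco2, a cohesin acetyltransferase, and Melk, a mitotic kinase, had 37 and 29 UMIs in control and 0 with aPD1. Cenpe, a kinetochore motor, had 81 UMIs in control and 5 with aCTLA4, and Nuf2, a kinetochore subunit, 43 in control and 1 with the combination.

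The G1 genes, which act before S phase, were low too, with 5, 6 and 6 of the 10 that passed (of 11) lower by more than 2-fold, beside the same 7.18%, 8.07% and 10.4% of all genes. Ccnd1, cyclin D1, was at 105 CPM in control, 15.5 with aPD1, 10.8 with aCTLA4 and 4.07 with the combination (log2 ratios -2.76, -3.28 and -4.69), and without cluster 15 it was still at 87.0, 15.1, 9.8 and 4.0. Ccnd2, cyclin D2, was at 52.5, 20.02, 14.8 and 16.3. Of 18 inhibitor and quiescence genes 16 passed, with 3, 2 and 2 lower and 1, 2 and 2 higher past 2-fold, where 3.24%, 3.79% and 3.69% of all genes were higher. Cdkn2c, an inhibitor of the G1 kinases, was low with the cell cycle genes at 27.9, 5.52, 8.81 and 7.19, while Gadd45a, a growth arrest and DNA damage gene, was higher than control at 7.46, 20.8, 29.0 and 35.5 (log2 1.48, 1.96 and 2.25).

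In T cell-like cells the wider S phase list had 1, 13 and 2 genes higher by more than 2-fold of the 37, 38 and 37 that passed, and the G2 and mitotic list 3 of 50, 7 of 53 and 1 of 51, against 3.3%, 3.71% and 3.03% of all genes tested. The counts with aPD1 and with the combination were small and near those shares. E2f1, a driver of S phase genes, was at 7.66 CPM in control and 25.2 with aCTLA4, and Foxm1, a driver of mitotic genes, at 4.74 and 24.0 (log2 1.72 and 2.34). Both were the leading gene of their list with aCTLA4. Of the 17 inhibitor and quiescence genes that passed, 5 were higher past 2-fold with the combination and none with either single antibody, beside the same shares of all genes. Klf2, a quiescence factor of resting T cells, was at 127, 252, 237 and 493 CPM (log2 0.99, 0.89 and 1.95). Cdkn1a, which encodes p21, was at 58.4, 88.6, 89.7 and 174, and Cdkn2a at 14.6, 24.1, 24.8 and 46.7. All 3 were highest with the combination, the library in which cluster 6 took 32.6% of T cell-like cells against 18.4% in control, and the part of that makeup in these levels was not tested.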

How the data were processed

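The authors deposited unnormalized UMI counts of every gene in every barcode of the 4 libraries, and a table with the cluster and library of each listed cell. The build was mm10 and the tools Cell Ranger and Seurat, per the submitters' processing notes. The sources used here name no version, annotation or filter. A near-identical copy could share reads with Tubb5, Tuba1b or Hmgb2, so these 3 levels are uncertain in that respect.

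The members, gene lists and tests were chosen with earlier results of these data known. Clusters were named where at least 3 markers of the best-matching type were detected in 25% of cells above the level of other cells. A name was withheld where another type had more markers among the cluster's leading genes, or where most markers of another lineage also passed. Clusters 0, 13 and 14 were left unnamed in this way. They had passed 7 of 12 macrophage/monocyte, 6 of 8 T cell and 7 of 8 NK cell markers. These thresholds were set after seeing values. UMIs were summed per class or cluster and library and divided by the total of that class (CPM). List medians were taken with 0.5 added to every count, over members that reached 20 counts in a pair of libraries, and background is the percent of all genes tested past 2-fold. Ratios of single genes carry no added count. Intervals were exact Clopper-Pearson, exact Poisson or conditional binomial. Cells were thinned to 1000 UMIs with a fixed seed, leaving out shallower ones. Values were named for the highest and lowest member per class and comparison, for Mki67, Top2a, Pcna, Tyms, Stmn1 and Ccnb1, and for leading genes of wider lists. Other members are given for their roles. Scrublet marked 2 of 14491 cells and so did not work, and leaving out the top 3% of scores (435 cells) was tried in its place. Scripts were tested on simulated data (Python 3.11.15, numpy 2.4.6, pandas 2.3.3, scipy 1.17.1, scanpy 1.11.5, matplotlib 3.10.9).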

Additional observations from a re-analysis of the deposited data

Results flagged for a closer look

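Among barcodes left out of the authors' table, 92.9% held 3 or more of the 32 phase genes (118 of 127, interval 87.0–96.7). The share was 93.6% in the control library. Of the 127 barcodes, 124 had over 3000 genes, so depth moved with this share and its part was not tested.

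The thinned share of cycling cells against control went opposite ways in the main classes. With aPD1 the ratio was 0.0788 in macrophage/monocyte-like cells and 1.37 in T cell-like cells. With aCTLA4 the ratio was 0.140 in the former and 2.24 in the latter. Each library was the only one of its group, and the difference between the classes was not tested.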

How the results depend on the processing

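With 1 library per group, no paired analysis was possible because no group held a second library, and there was no replicate to leave out. Over 145 alternatives of 23 values, 117 stayed within the interval of the main value and 27 lay outside it. A further 1 changed sign from a main value whose interval lay to 1 side of no difference. For shares and their ratios the interval was that of counting error. For list medians it came from the ranked ratios of the members, so it describes spread between genes and not counting error. The causes were not tested. Leaving out cluster 15, cluster 9 or shared barcodes from the cycling shares, and shared barcodes from the list medians, was chosen after seeing the data.

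For the ratio of thinned cycling shares to control, counting all 36 members gave 0.648 with aPD1 in all cells, and 0.245, 0.319 and 0.260 with aPD1, aCTLA4 and the combination in macrophage/monocyte-like cells. Without thinning it was 0.726 with aCTLA4 and 0.446 with the combination in all cells, 0.273 with aPD1 in macrophage/monocyte-like cells and 1.75 with aCTLA4 in T cell-like cells. Without the highest Scrublet scores it was 0.0301 with aPD1 in macrophage/monocyte-like cells. Without cluster 9 it was 1.87 with aPD1 and 1.68 with the combination, both in T cell-like cells, and these ratios rest on few cells.

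The list median without cluster 15 was -1.11, -1.24 and -1.51 in macrophage/monocyte-like cells. Without cluster 9 it was 0.0857 with aCTLA4 in T cell-like cells and -0.0485 with aPD1, against 0.16 with the cluster. The S phase share of phase UMIs was 40.5%, 45.9%, 43.9% and 46.6% over all cells and 38.4%, 43.5%, 42.9% and 44.1% over cycling cells. The share of cycling cells outside clusters 9 and 15 was 36.4%, 28.8%, 24.9% and 21.1% with 5 or more genes required and 21.6%, 16.8%, 14.4% and 13.4% after thinning. Members with few UMIs in a class (Bub1, Plk1 and Kif11, and most members in NK cell-like cells) had wide intervals, so the size of their differences is uncertain.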

Other observations

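The neutrophil-like cells of the aPD1 library held 129 UMIs of mitotic members, of which 116 came from 1 cell with 24 phase genes and 13322 UMIs, and the other cells held 13. In NK cell-like cells of the same library, 32 of 44 UMIs of Cks1b came from 1 cell. The authors' second clustering, of lymphoid cells only, put dividing cells together as well: its cluster 3 held 547 cells, of which 534 belonged to cluster 9.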
